A study of Mus musculus with 2 samples.

Results

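The 9 genes described here, Sbsn, Dmkn, Krtdap, Lor, Ivl, Sprr1a, Sprr1b, Sfn and Lgals7, encode proteins of stratified and cornified epithelium. They were chosen by name, with earlier results of these data known, and every probe set annotated to 1 of them and to no other gene was used. This gave 14 probe sets of 45037 non-control probe sets, and 9 genes of 18194 with a probe set. Each was measured in mammary epithelial cells of mice on day 18 of pregnancy. RNA from 5 Cuzd1-heterozygous mice was pooled on 1 array, and RNA from 5 Cuzd1-null littermates on the other. The null allele was made by homologous recombination in embryonic stem cells and had been backcrossed to C57BL/6. Both pools therefore share that background, and the control cells carry a null allele too, since no wild-type pool was analysed here. The cells came from digested inguinal glands, with no sort recorded, so each pool may hold any cell type that the digestion released. The protein made from Cuzd1 carries CUB domains and a zona pellucida-like domain, and the series' description reports defective alveolar development and lactation in the null gland.

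Stratified epithelia renew from a basal layer whose daughter cells move outward and differentiate. In the last step the cell lays down a cornified envelope beneath its membrane, in which transglutaminases cross-link involucrin (Ivl), loricrin (Lor) and small proline-rich proteins (Sprr1a, Sprr1b). Suprabasin (Sbsn), dermokine (Dmkn) and keratinocyte differentiation-associated protein (Krtdap) are secreted or suprabasal products of differentiating keratinocytes. Sfn is stratifin, the epithelial 14-3-3 sigma protein that binds phosphorylated partners, and Lgals7 is galectin-7, a lectin of stratified epithelia. In the mammary gland, keratinised epithelium belongs to the nipple and its opening, while the ducts and alveoli consist of luminal and myoepithelial cells.

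The members lie in a few places in the genome. By the order of coding genes in RefSeq's table for GRCm38.p6, Sbsn, Dmkn and Krtdap are direct neighbours on chromosome 7, where Lgals7 also lies, beside Lgals4. Lor, Sprr1b, Sprr1a and Ivl lie in the epidermal differentiation complex on chromosome 3, and Sfn is on chromosome 4. The promoters of all 9 members were found in RefSeq's promoter sequences, as 11 windows of 300 bases, from 250 bases before to 50 after a transcript start. Dmkn had 3 of them and each other member had 1. The sequences below are shown because they hold a feature that most members share and the choice of members did not use. This is the heptamer bound by AP-1 (dimers of Fos and Jun proteins), with the match in capitals and each line written 5′ to 3′ on the strand of the gene. The Sprr1b line holds TGAATCA, which has another middle base than the TGAGTCA or TGACTCA of the other lines.
Sbsn, chr7:30751412-30751471, plus strand: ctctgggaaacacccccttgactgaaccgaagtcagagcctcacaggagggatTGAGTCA
Dmkn, chr7:30763641-30763700, plus strand: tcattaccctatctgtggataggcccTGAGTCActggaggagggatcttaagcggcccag
Krtdap, chr7:30787798-30787857, plus strand: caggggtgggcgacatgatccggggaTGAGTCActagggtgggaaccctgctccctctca
Lor, chr3:92083157-92083216, minus strand: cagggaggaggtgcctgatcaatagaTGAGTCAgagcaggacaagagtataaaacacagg
Ivl, chr3:92573818-92573877, minus strand: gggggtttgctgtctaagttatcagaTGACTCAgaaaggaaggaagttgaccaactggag
Sprr1a, chr3:92485964-92486023, minus strand: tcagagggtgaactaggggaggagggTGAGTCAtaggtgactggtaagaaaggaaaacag
Sprr1b, chr3:92438857-92438916, minus strand: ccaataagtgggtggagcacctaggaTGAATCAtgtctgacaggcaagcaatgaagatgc

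The consensus TGAGTCA, searched on both strands so that TGACTCA counts as the same match, was present in the windows of 6 of the 9 members. Of all 27025 genes in the table, 5.95% had it in a window. With any middle base, TGANTCA, which overlaps the consensus, 7 members had a match, against 8.97% of all genes. The exceptions were Sfn and Lgals7, which says only that these letters are not in their windows. The first base of the consensus lay 6 bases before the start in Sbsn, 48 in Lor, 81 in Krtdap and 116 in Ivl. Sprr1a had the consensus at 146 and at 116 bases before its start. All 3 windows of Dmkn held it, 89, 91 and 82 bases before the start, but the first 2 of these overlap and share the match. Sprr1b had TGAATCA at 111 bases, a form that Sbsn also had at 119 bases. A TATA hexamer, TATAAA on either strand, was present in 5 members, all of them with a TGANTCA match, against 15.7% of all genes. The median GC content was 52.3% over the member windows and 52.7% over all windows. Matches are a description of the letters. Binding was not measured.

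**Figure D1:**
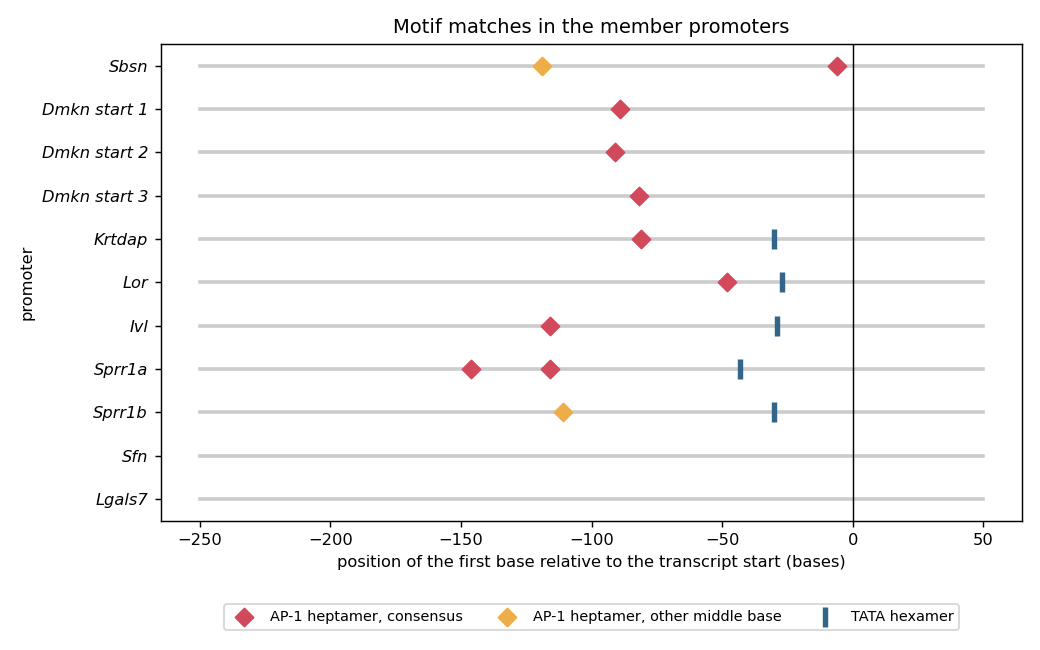
Each grey line is a promoter window of a member, on an axis of bases relative to the transcript start at 0, and symbols mark the first base of each match. AP-1 heptamers with any middle base sit between 146 and 6 bases before the start in 7 members, 6 of which have the consensus. Sfn and Lgals7 have no match.

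Signals are MAS5 intensities, which the authors scaled so that the trimmed mean is equal on both arrays. A probe set was called above the floor where it exceeded the median of its array, 34.2 units in heterozygous and 32.5 units in null cells. The brightest probe set by mean signal stood for each gene, which was called measured where at least 1 array was above the floor. By this rule 6 members were measured, all of them above both floors, and 3 were below the floor on both arrays. Of the 6, Sbsn, Dmkn, Lor and Lgals7 read lower and Sprr1a and Sfn read higher in the null pool, and no member was 2-fold apart in either direction. Among all 11894 measured genes, 1.03% were at least 2-fold lower and 1.12% at least 2-fold higher. The median log2 ratio of null over heterozygous was -0.27 over the 6 measured members, from -0.51 to 0.52. Over all measured genes it was 0.03, with 45.96% of them below 0. A single array for each genotype leaves no replicate error and no test, so each difference is one between these 2 pools. The spread between mice is hidden by the pooling, and fewer cells of a type cannot be told apart from less RNA per cell.

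**Figure D2:**
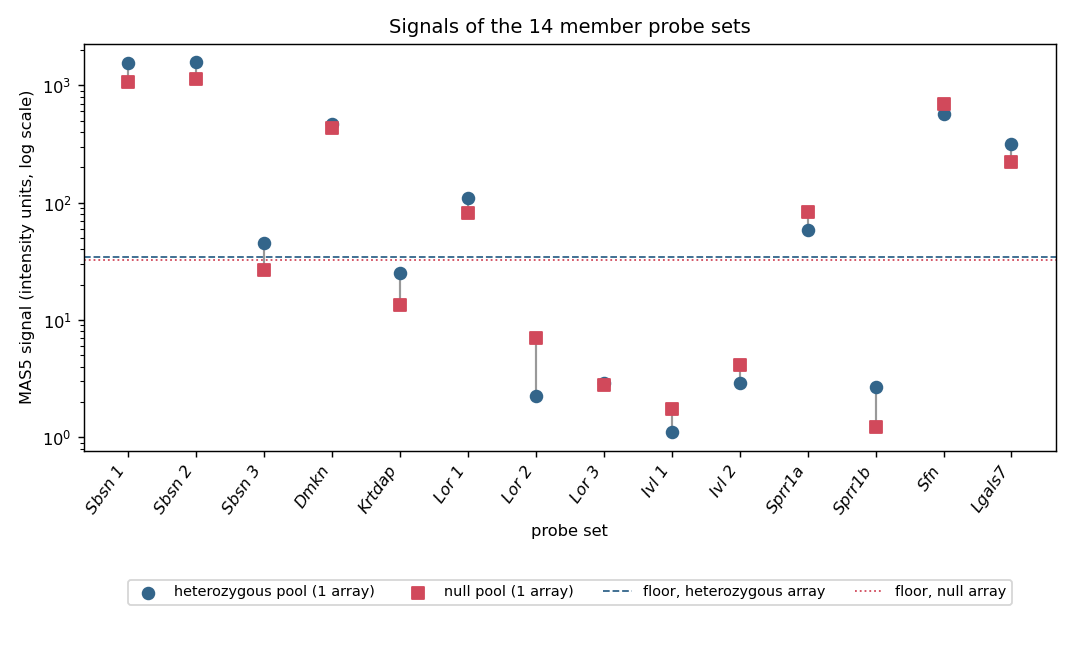
Signal of each of the 14 member probe sets on a log axis, with circles for the heterozygous pool, squares for the null pool and dashed and dotted lines for the 2 floors. The Sbsn, Lor and Lgals7 probe sets above both floors are lower in the null pool, Sprr1a and Sfn are higher, and all probe sets of Ivl and Sprr1b lie below 5 units.

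Sbsn, the suprabasal secreted protein, had 3 probe sets, and all 3 were lower in the null pool. The probe set with the highest signal read 1569 units in heterozygous and 1140 units in null cells, 27.3% lower, a log2 ratio of -0.46. The next read 1548 and 1061 units, a ratio of -0.55. Both read the same 2 pools, so their likeness is not a replicate. The third read 44.9 and 26.8 units, the latter below the floor, and was at least 1.38-fold lower. Among 595 genes of similar signal, the log2 ratios had a robust SD (scaled median absolute deviation) of 0.22, and the Sbsn ratio was 2.05 times that. That spread holds real differences as well as noise.

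Of its neighbours, Dmkn, a secreted product of the same keratinocyte layers, read 471 and 437 units, a ratio of -0.11, within the robust SD of 0.24 at its signal. This was the measured member with the smallest difference. Krtdap read 24.95 and 13.4 units, below the floor on both arrays, so no fold is given. Of the 3 adjacent genes, Sbsn and Dmkn were thus above the floor in both pools and Krtdap in neither.

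Lgals7, the galectin of stratified epithelia, had the lowest ratio of the measured members. Its probe set read 315 units in heterozygous and 221 units in null cells, 1.43-fold lower, a log2 ratio of -0.51. The robust SD at its signal was 0.28. The other 8 measured galectin genes had ratios from -0.12, for Lgals4, its neighbour on chromosome 7, to 0.52, for Lgals9. Lgals1, a galectin of mesenchymal and many other cells, had a ratio of -0.03. The median of the 9 galectin genes, Lgals7 included, was -0.03.

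The envelope precursors were dim or below the floor. Lor, whose product makes up most of the envelope in epidermis, had 3 probe sets that disagreed. Its highest probe set read 110 and 82.3 units, a log2 ratio of -0.43 against a robust SD of 0.39. The other 2 were below the floor on both arrays, at 2.26 and 7.07 units and at 2.91 and 2.81 units. The last of these is the probe set that the annotation ties to the RefSeq transcript of Lor, while the probe set above the floor has no accession there. Whether the signal of 110 and 82.3 units comes from Lor transcript was not tested. Ivl, the early scaffold of the envelope, read 1.11 and 1.73 units at its first probe set and 2.88 and 4.12 units at its second. Sprr1b read 2.71 and 1.21 units. Neither gene was above the floor in either pool.

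Sprr1a, a small proline-rich precursor that is also induced by stress and injury, went the other way. It read 58.1 units in heterozygous and 83.0 units in null cells, 43.0% higher, a log2 ratio of 0.52 against a robust SD of 0.44 at that signal. Genes of that signal had a median of 0.08, and counted from this median the Sprr1a ratio lay just within the robust SD. Sfn, the 14-3-3 protein of epithelial cells and a p53 target, read 568 and 698 units, 22.8% higher, a ratio of 0.30 against a robust SD of 0.25. The 7 genes of the 14-3-3 family, Sfn included, had ratios from -0.19 to 0.30 with a median of 0.07, and Sfn had the highest. Ywhae and Ywhaq, members expressed in most cells, had 0.02 and 0.07. Of 16 measured p53 targets and regulators, Mdm2, the ubiquitin ligase that restrains p53, was the 1 gene at least 2-fold lower, at 787 and 384 units. It was under 2-fold on the scale of the hybridization controls and in the mean over its probe sets, the next of which had a ratio of -0.62. No gene of that list was 2-fold higher, 12 had a ratio below 0 and 4 above, and the median was -0.12. Fas, Bbc3 and Cdkn1a were the next lowest after Mdm2, with -0.94, -0.88 and -0.72.

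**Figure D3:**
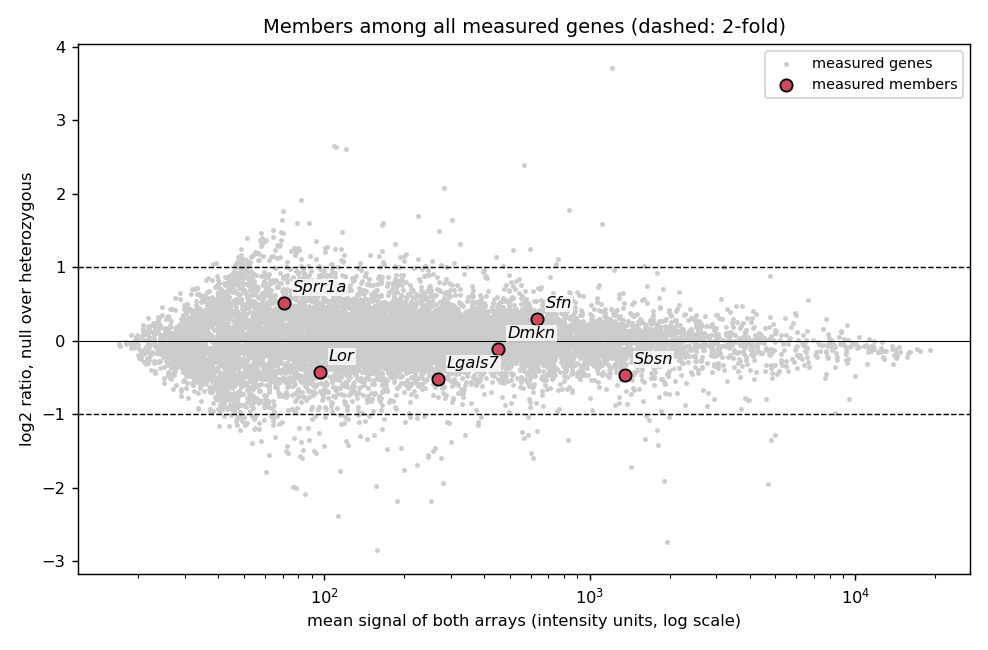
Log2 ratio of null over heterozygous against the mean signal of both arrays (log axis) for the 11894 measured genes in grey and the 6 measured members in red. All 6 lie between the dashed lines that mark 2-fold, with Lgals7 lowest at -0.51 and Sprr1a highest at 0.52.

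The direction of Dmkn depended on the scaling between arrays, and that of the other 5 measured members did not under the settings tried. The 9 probe sets for hybridization controls had a median log2 ratio of -0.23, and rescaling to them moved the median of all measured genes from 0.03 to 0.26. On that scale Dmkn had a ratio of 0.12, Sbsn -0.23, Lor -0.20, Lgals7 -0.29, Sfn 0.52 and Sprr1a 0.74, and the median of the members was -0.04. Relative to the median of all genes on the same scale, Dmkn thus still read lower. The gene lists that follow are given as deposited. On the hybridization-control scale the medians of the suprabasal keratins and the other envelope genes were -0.66 and -0.09, while those of the desmosome and basal lists changed sign, to 0.13 and 0.17. The medians of the desquamation, lipid barrier, transcription factor, galectin, p53 and contractile lists also changed sign there, to between 0.11 and 0.20. That of the sebaceous list went from -0.15 to 0.08.

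**Figure D4:**
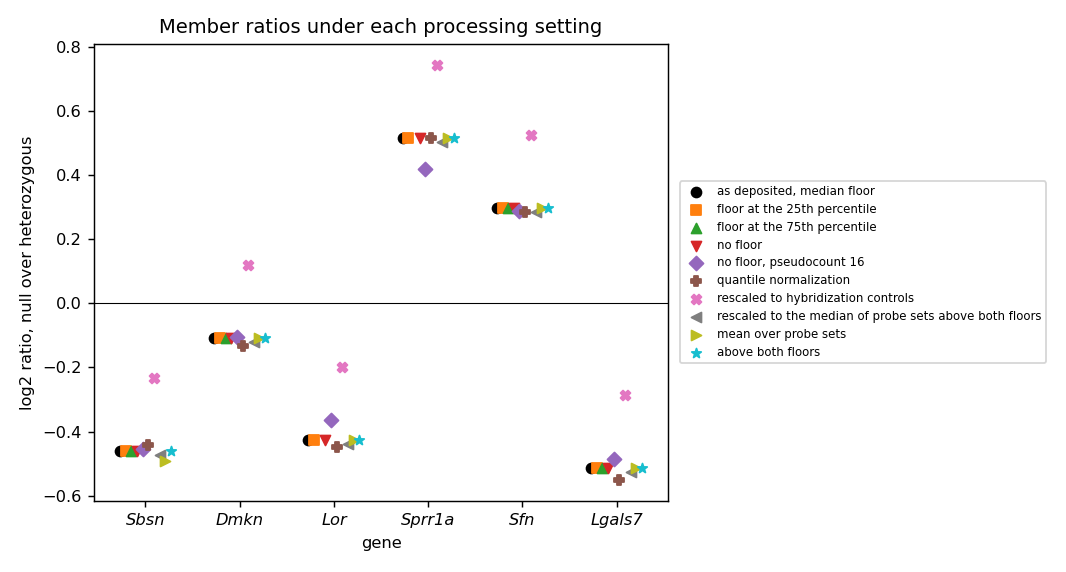
Log2 ratios of the 6 measured members as deposited and under each of 9 other settings, 1 symbol per setting. Sbsn, Lor and Lgals7 stay below 0 and Sfn and Sprr1a above 0, while Dmkn is above 0, at 0.12, with the rescaling to hybridization controls.

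Of the other genes of the cornified envelope, 14 of 41 with a probe set were measured, and 27 were below the floor in both pools. Of the 14, 8 were above both floors, 6 of them with a ratio below 0 and 2 above, and their median was -0.31. Another 4 were above the floor in heterozygous cells only and 2 in null cells only. For the 4 this fixes the side of their difference. It does not for the 2, because the heterozygous floor is the higher one. Of these, Tgm3 read 28.4 and 33.2 units and had a ratio of -0.04 after flooring. Sprr2k, a small proline-rich protein, was the 1 gene at least 2-fold apart, at 66.1 and 17.9 units, at least 2.03-fold lower. It was under 2-fold with quantile normalization, on the hybridization-control scale and with the floor at the 75th percentile of each array. Sprr2 genes share similar sequence, so the single gene is uncertain. Tgm1, the transglutaminase that cross-links the envelope, read 256 and 173 units (-0.57), and Ppl, the scaffold periplakin, 239 and 161 units (-0.58). Evpl, the partner envoplakin, read 57.0 and 80.7 units (0.50). Flg, the filaggrin precursor of the granular layer, read 0.780 and 1.13 units and Sprr3 4.20 and 2.53 units. Between Lor and Ivl on chromosome 3, 5 of the 12 coding genes with a probe set were measured. Lor and Sprr1a were above both floors and lay on opposite sides of 0. Sprr2d, Sprr2f and Sprr2k were above the floor in heterozygous cells only. Tgm1, Tgm3, Ppl, Evpl, Flg and Sprr3 are named after their values were seen.

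Of 16 keratins of suprabasal and stressed epithelium with a probe set, 8 were measured, with a median of -0.89. The 5 above both floors all had ratios below 0, with a median of -0.86, while 2 were above the floor in heterozygous cells only and 1 in null cells only. Krt6b, a keratin of hyperproliferative and wounded epithelium, read 112 and 8.93 units, at least 3.43-fold lower. Krt78 read 106 and 39.1 units, 2.70-fold lower, and no listed keratin was 2-fold higher. Krt10, a defining keratin of the epidermal spinous layer, read 155 and 85.7 units (-0.86), while its partner Krt1 was below the floor at 13.8 and 11.1 units. With the floor at the 75th percentile of each array, a choice that shrinks the ratios of dim genes, the keratin median was -0.05, against -0.29 for the members, and no keratin was 2-fold lower. With the floor at the 25th percentile it was -0.38, against -0.43 for the members, and 2 keratins were 2-fold higher. The order of the medians of keratins and members thus depended on the floor.

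Basal keratins, which mark the layer beneath and also mammary myoepithelial cells, were lower as well. Krt15 read 343 and 106 units, 3.22-fold lower, and Krt17 368 and 126 units, 2.93-fold lower. The basal keratin pair Krt5 and Krt14 read 679 and 491 units (-0.47) and 1692 and 1050 units (-0.69). The other 2 probe sets of Krt14 had ratios of -0.75 and -0.80. Trp63, the transcription factor that maintains basal and stratified epithelium, read 157 and 227 units (0.53) at its highest probe set, but its 3 others had -0.09, -0.71 and -0.66. Across the 11 measured basal genes the median was -0.06, with 6 below and 5 above 0 and 2 at least 2-fold lower.

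Desmosome genes, lipid barrier genes and transcription factors of stratified epithelium had no gene 2-fold apart. The 9 measured desmosome genes had a median of -0.10, from -0.75 for Pkp1 to 0.43. Dsg2, a desmoglein of simple epithelia, had 0.40 and Perp, a desmosomal tetraspan protein, -0.03. The 14 measured lipid barrier genes had a median of -0.04, with -0.38 for Elovl1, a fatty acid elongase, and -0.00 for Abhd5, a lipase coactivator, whose signals were 1977 and 1972 units. The 24 measured transcription factors had a median of -0.02, from -0.87 for Klf5 to 0.53 for Trp63, whose other probe sets had ratios below 0. The promoters of 6 members hold the consensus heptamer of AP-1. Of its genes the list held Jun, Junb, Fosl1 and Fosl2, with ratios of 0.12, 0.18, -0.18 and -0.10. Other Fos and Jun genes were not in the list. Among desquamation proteases and inhibitors, 7 of 10 measured genes had a ratio below 0, and the median was -0.11. St14, Serpinb5 and Prss8, a protease, a serpin and a protease of epithelial surfaces, had -0.52, -0.50 and -0.37. None was 2-fold lower and 2 were at least 2-fold higher. Cst6, a cysteine protease inhibitor of cornifying cells, read 1.88 and 215 units, at least 6.29-fold higher. Casp14, the caspase of cornification, read 36.3 and 77.5 units, 2.14-fold higher, while its other probe set was below the floor at 1.21 and 2.75 units. Neither was 2-fold higher with the floor at the 75th percentile.

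**Figure D5:**
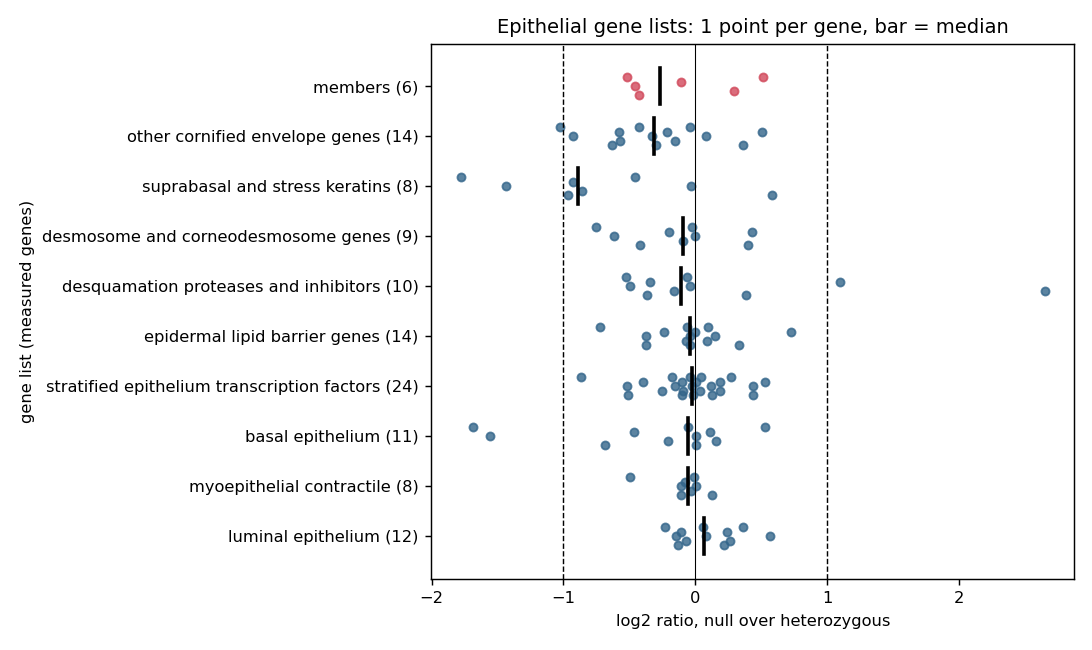
Log2 ratio of null over heterozygous for the measured members and 9 epithelial gene lists, as deposited, with 1 point per gene, a bar at each median and dashed lines at 2-fold. The suprabasal keratins have the lowest median, -0.89, and the luminal list the highest, 0.07.

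The label of the group describes the genes and only in part these cells. Of the genes of cornified epithelium, Ivl, Sprr1b, Krtdap, Flg and Krt1 were below the floor in both pools. Above both floors were Sbsn, Dmkn, Lgals7, Sfn and Sprr1a, 1 of 3 probe sets of Lor, Krt10, Tgm1, and 1 of 2 probe sets of Casp14. These genes were picked with their values known. All 12 luminal and all 8 myoepithelial contractile genes of the lists were above both floors. With no sort recorded, which cells gave these signals was not tested. Signals summed over the luminal list were 73952 and 73414 units, and over the contractile list 28817 and 27300 units, while the basal list summed to 7854 and 6559 units. Their medians were 0.07 for luminal, with -0.23 for Wap and -0.11 for Csn2, and -0.06 for contractile genes, with -0.11 for Acta2 and -0.08 for Tpm2. A few bright genes weigh heavily in the luminal and contractile sums. Wap read 15403 and 13117 units, Csn2 14669 and 13592 units and Acta2 12211 and 11312 units. Of 24 hair follicle genes with a probe set, 20 were below the floor in both pools. Krt81 and Krt71 had ratios of 0.18 and -0.69, and the list summed to 397 and 468 units. All list sums given here include genes below the floor, so this difference is not read as one in hair follicle signal. Among melanocyte genes 4 of 8 were measured, with -0.23 for Sox10 and 0.00 for Mitf, at sums of 1964 and 1648 units. Sox10, at 1748 and 1488 units, makes up most of both sums. Tyr and Pmel were above the floor in heterozygous cells only, and Dct, Tyrp1, Mlana and Slc45a2 in neither pool. Sebaceous genes summed to 21169 and 19804 units, of which Plin2 (-0.15) and Mgst1 (-0.00), both also genes of milk-secreting or other cells, make up most. Langerhans cell genes summed to 11640 and 13384 units, with 0.24 for H2-Aa and 0.26 for Epcam, which luminal cells share. Epcam read 3689 and 4424 units, H2-Aa 3462 and 4082 units and Cd74 2572 and 2751 units. Cd207 was below the floor in both pools, at 31.1 and 2.79 units. Which cells gave these sums was not tested.

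Markers of stromal and immune cells differed between the pools beside the member values. The fibroblast and matrix list, 15 measured genes, had a median of 0.41, 14 of them above 0, with summed signals of 15846 and 20122 units. Col1a2, a chain of type I collagen, and Pdgfra, a fibroblast receptor, were 3.02-fold and 3.05-fold higher, the latter with a ratio of 0.04 at another probe set. Col1a1, also a chain of type I collagen, had a ratio of 0.06, and Postn, the 1 gene below 0, had -0.37. Endothelial genes had 0.42 over 12, all above 0, with sums of 2571 and 3590 units, and Vwf was 2.49-fold higher. B and plasma cell genes had 0.96 over 6, with sums of 418 and 2975 units. Of the 6, 3 were above both floors, while Cd79a, Ms4a1 and Mzb1 were above the floor in null cells only. Those 3 count as measured only through the pool where they are high. Ighm, 13.1-fold higher, makes up most of the sum in the null pool. Jchain was 4.25-fold and Mzb1 at least 2.16-fold higher. The part of these cells in the member ratios was not tested. The targeted gene does not check the labels, since Cuzd1 read 32.4 and 33.98 units, close to both floors, and the position of its probe set against the deleted part was not analysed here.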

How the data were processed

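The authors deposited linear signal intensities, which the submitters' processing notes credit to MAS5 and Affymetrix Expression Console (version 1). No genome build is given in the sources used here. Both arrays held 45101 probe sets (64 controls), and the mean after leaving out the top and bottom 2% was 150.0 units on both. Gene symbols came from the platform's annotation and were updated through Entrez IDs in RefSeq's mouse table, which held 34754 of 34958 probe sets with 1 symbol. Signals below the floor were raised to it before the log2 ratio. For a gene above the floor on 1 array only, the fold is a bound, written "at least". Genes were counted at 2-fold as a rule of size. Robust SDs came from 20 bins of signal. They are spreads about the median of each bin, and the member ratios set beside them were not centred on that median. The ratio procedure was tested on simulated data. Effects were planted only in brighter genes, with less noise than the spread between these arrays, so that test does not cover genes near the floor. Python 3.11.15, numpy 2.4.6 and pandas 2.3.3 were used.

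The members, lists and motifs were chosen with earlier results of these data known, and the motifs, the gene spans and the stromal and B cell lists were added after the values were seen. Each list gave its genes at least 2-fold apart (up to 5), or otherwise its 2 brightest measured genes. Krt1, Krt5, Krt10, Krt14 and Trp63 were always named, and other list genes given as examples were named after their values were seen. No gene is named for a pattern like a member's, because 2 arrays give no measure of likeness. Alternatives were other floors, a pseudocount of 16, other scalings, the mean over probe sets, and genes above both floors only. Precision is limited by the number of arrays.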

Additional observations from a re-analysis of the deposited data

How the results depend on the processing

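Among the 6 measured members, the sign of the log2 ratio of Sbsn, Lor, Lgals7, Sfn and Sprr1a was the same in every one of the 9 alternatives that gave a value, and that of Dmkn in all but the rescaling to hybridization controls. With the floor at the 75th percentile, Lor and Sprr1a were no longer measured, which left 1 member above 0. With no floor, 1 member, Sprr1b, was at least 2-fold lower (-1.16), from signals of 2.71 and 1.21 units. Krtdap, measured with the floor at the 25th percentile, had a ratio of -0.90 there. The members' median ran between -0.43 and -0.04.

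Counts over all genes followed the floor and the scaling. There were 817 genes at least 2-fold lower and 666 higher when floored at the 25th percentile, 39 and 24 at the 75th, 1883 and 1676 with no floor, and 307 and 311 with the pseudocount of 16. On the hybridization-control scale there were 59 and 349, so that 85.5% of the called genes were higher, against 52.0% as deposited. No paired analysis was possible because each genotype has 1 array and the result comes from no test. For the same reason no replicate could be left out.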
